A study of Mus musculus and Mus spretus with 72 samples.

Results

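Fgf21, Hamp, Thrsp, Pck1 and Igfbp1 are liver genes of fasting, iron and fat metabolism, and Cux2 is a transcription factor known as a regulator in liver. The levels of these genes were followed over groups of male mice and over single animals. They were taken as all array probes that carry 1 of these 6 symbols. Probes were found for 5 of the 6 genes, 6 probes of 22089 in all, with 2 probes for Cux2 and 1 for each of the others. Igfbp1, a binding protein of insulin-like growth factors, was not analysed here.

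Each array set RNA of 1 male mouse, about 12 weeks old, against a pool of 9 mice of the laboratory strain C57BL6 for the same tissue. The groups were dom (Mus musculus domesticus, n = 6), mus (M. m. musculus, n = 6), cas (M. m. castaneus, n = 3), ssp (M. musculus of a sub-species that the labels do not name, n = 6) and spretus (Mus spretus, another species, n = 3). Brain, testis and a sample named liver/kidney were measured, and how the organs of the last were combined is not stated. The labels name no treatment, genotype, feeding state or diet for any group. By its title the study set early against late stages of population divergence, here sub-species of the house mouse against a separate species.

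Fgf21 is a hormone that the liver releases on fasting and under nutrient stress, through the nuclear receptor PPAR-alpha and the stress factor ATF4. Pck1 is the cytosolic phosphoenolpyruvate carboxykinase, which controls an early step of glucose synthesis in liver and in kidney tubules and rises on fasting. Hamp encodes hepcidin, the liver hormone that removes the iron exporter ferroportin from cell surfaces and that rises with iron stores and inflammation. Thrsp (Spot 14) is a small protein that rises with carbohydrate feeding and thyroid hormone and promotes fatty acid synthesis. Cux2 is a homeobox transcription factor, known in neurons of the upper cortical layers and as a female-biased regulator in mouse liver. Igfbp1 rises when insulin falls.

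The stretches before the starts of Fgf21, Pck1 and Hamp hold elements by which fasting and iron signals are known to act, and that of Thrsp is shown beside them. They are the 250 bases before each start, 5′ to 3′ on the strand of the gene, in the C57BL/6J reference (RefSeq, GRCm38.p6), so they are not the alleles of the mice measured. The windows are Fgf21 (chr7:45615491-45615740, minus strand), Pck1 (chr2:173152823-173153072, plus strand), Hamp (chr7:30944030-30944279, minus strand) and Thrsp (chr7:97417551-97417800, minus strand). Capitals mark the matches found by a search of both strands for 6 motifs.
Fgf21: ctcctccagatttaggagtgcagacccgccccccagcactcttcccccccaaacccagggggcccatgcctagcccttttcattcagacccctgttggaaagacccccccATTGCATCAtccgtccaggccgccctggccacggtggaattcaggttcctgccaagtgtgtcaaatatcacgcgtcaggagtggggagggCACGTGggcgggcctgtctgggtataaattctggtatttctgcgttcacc
Pck1: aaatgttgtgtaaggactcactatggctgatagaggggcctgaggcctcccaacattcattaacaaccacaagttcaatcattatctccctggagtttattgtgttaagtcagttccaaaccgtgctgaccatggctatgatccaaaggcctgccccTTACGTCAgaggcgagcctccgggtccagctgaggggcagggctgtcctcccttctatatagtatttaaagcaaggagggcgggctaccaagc
Hamp: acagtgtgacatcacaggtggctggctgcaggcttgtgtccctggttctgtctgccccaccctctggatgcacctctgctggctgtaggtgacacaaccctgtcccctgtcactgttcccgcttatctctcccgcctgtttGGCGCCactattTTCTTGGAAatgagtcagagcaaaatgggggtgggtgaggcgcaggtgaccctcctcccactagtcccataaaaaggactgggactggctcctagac
Thrsp: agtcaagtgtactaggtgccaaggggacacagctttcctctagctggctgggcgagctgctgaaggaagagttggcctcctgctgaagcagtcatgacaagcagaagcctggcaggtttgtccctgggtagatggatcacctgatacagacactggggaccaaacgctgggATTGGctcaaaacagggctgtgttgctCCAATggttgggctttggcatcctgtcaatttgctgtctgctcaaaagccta
In Fgf21 the capitals are an amino acid response element (TGATGCAAT, here on the other strand as ATTGCATCA), bound by ATF4, 140 bases before the start, and an E-box (CACGTG) 50 bases before it. In Pck1 they are the cyclic AMP response element (TTACGTCA) 93 bases before the start, the element through which glucagon signals reach the gene. In Hamp they are GGCGCC, an element of bone morphogenetic protein signalling, 109 bases before the start, and TTCNNNGAA, the core read by STAT factors, 97 bases before it. In Thrsp they are 2 CCAAT boxes (CCAAT, the first as ATTGG), a general promoter element, and no element of feeding signals is marked. No match overlapped another. The amino acid response element was in 55 of 32851 windows of this length (0.167%), the cyclic AMP element in 0.447%, the E-box in 6.02%, TTCNNNGAA in 7.02%, GGCGCC in 9.59% and CCAAT in 33.8%. A match is a run of letters and was not tested as a binding site.

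Values are log2 ratios of the animal over the C57BL6 pool, centred on the median of each array. Both log2 as the scale and animal over pool as the direction are assumptions, since neither is stated in the sources used here, and all signs would turn together if the direction were inverted. Between 42825 and 44832 of 46128 spots carried a value on each liver/kidney array. The arrays fell into 3 sets by which spots lacked a value. All dom, mus and ssp liver/kidney arrays were in set 1, all cas arrays and spretus 1 and 3 were in set 2, and spretus 2 stood alone in set 3. A difference of cas or spretus from dom, mus or ssp therefore cannot be told apart from a difference between sets. Duplicate spots of a probe agreed within groups with r of 0.758 for Pck1, 0.744 for Fgf21, 0.718 for Thrsp and 0.681 for Hamp, but only 0.318 for the first Cux2 probe and 0.142 for the second.

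In liver/kidney, Fgf21, Hamp, Thrsp and Cux2 were lower in spretus than in the mean of dom, mus, cas and ssp, by 0.34 to 0.51 on the log2 scale, and Pck1 did not pass the test. The low mean of each gene rested mainly on a single array: spretus 1 for Fgf21, spretus 2 for Hamp and Cux2, and spretus 3 for Thrsp. Spretus 2 was the only liver/kidney array of set 3. Its low values, here and in the gene lists below, cannot be told apart from an effect of that array. Among dom, mus, cas and ssp no difference of the 5 genes passed the test. Over all 20652 probes tested, limma called 7.49% in the spretus comparison, 4.46% lower and 3.03% higher (Benjamini-Hochberg adjusted p under 0.05 here and throughout). Whether the probes read RNA of spretus, another species, as well as RNA of the pool was not tested. A low spretus ratio therefore need not be a low transcript level. The plot of the value of each animal shows the 5 genes and the second Cux2 probe.

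**Figure D1:**
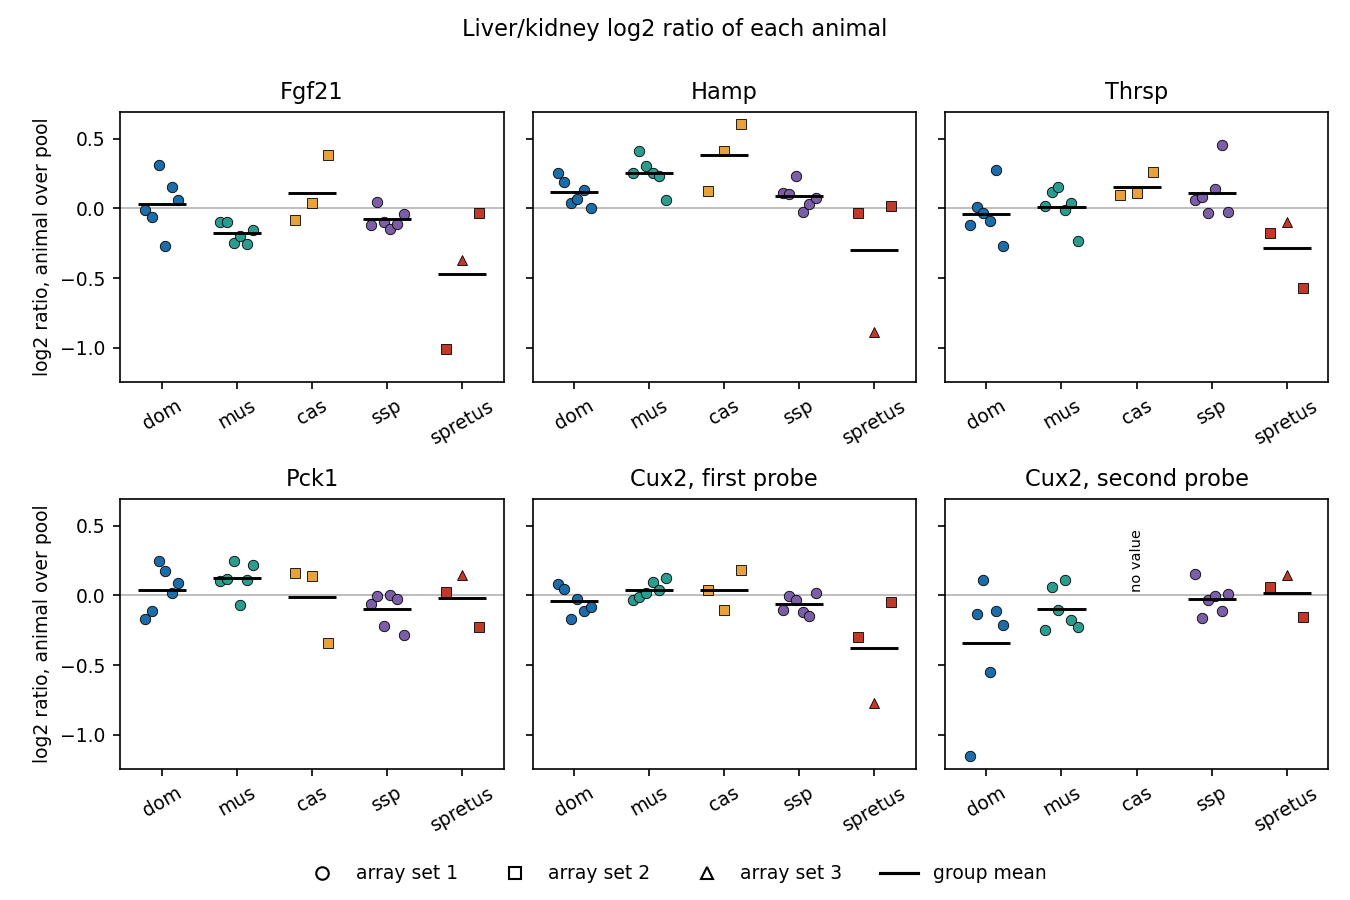
Liver/kidney log2 ratio of each animal over the C57BL6 pool (y axis) by group (x axis) for the 6 probes. Points are single arrays, with circles, squares and triangles for array sets 1, 2 and 3, and bars are group means. The lowest point of Fgf21 is spretus 1 (-1.01), of Hamp and of the first Cux2 probe spretus 2 (-0.88 and -0.77), and of Thrsp spretus 3 (-0.57).

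Fgf21, the fasting hormone, had log2 ratios of -1.01, -0.37 and -0.03 in spretus 1, 2 and 3. In cas 1, 2 and 3 it had -0.08, 0.04 and 0.39. The lowest, median and highest values were -0.27, 0.02 and 0.32 in dom, -0.26, -0.18 and -0.09 in mus, and -0.15, -0.10 and 0.05 in ssp. Spretus 1 and 2 lay below every array of the other groups, and spretus 3 lay among them. Spretus differed from the mean of the other groups by -0.45 ± 0.13 (SE; 95% interval -0.71 to -0.19; adjusted p = 0.0308, limma), which is a ratio to the pool of 0.734 times theirs. Both spots of spretus 1 were low, at -0.98 and -1.05. Without spretus 1 the difference was -0.18 (adjusted p = 0.381), and without spretus 2 it was -0.50 (adjusted p = 0.0617). In order of the means, cas (0.11) and dom (0.03) were followed by ssp (-0.08), mus (-0.18) and spretus (-0.47). No neighbours in that order differed (mus against spretus 0.30 ± 0.14, adjusted p = 0.258), while dom exceeded spretus by 0.51 ± 0.14 (adjusted p = 0.0398; 5.32% of probes called) and cas by 0.59 ± 0.17 (adjusted p = 0.0471; 3.8% called).

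Pck1, the gluconeogenic enzyme, had log2 ratios of 0.02, 0.15 and -0.23 in spretus 1, 2 and 3 and of 0.16, 0.14 and -0.34 in cas 1, 2 and 3. Its lowest, median and highest values were -0.17, 0.05 and 0.25 in dom, -0.07, 0.12 and 0.24 in mus, and -0.29, -0.05 and 0.01 in ssp. All groups overlapped. The spretus difference was -0.03 ± 0.10 (95% interval -0.24 to 0.17; adjusted p = 0.901, limma). A change of the size seen in Fgf21 lies outside this interval, which takes no account of array sets or organ mixture. With the marker mean described below as a covariate the difference was -0.44, not called, so a change of that size is not excluded. The order of the means was mus (0.12), dom (0.04), cas (-0.01), spretus (-0.02) and ssp (-0.10). The widest gap, mus over ssp, was 0.22 ± 0.09 (adjusted p = 0.372; 0.392% of probes called). Its spread between animals of a group, 0.16 on the log2 scale, was at the 49.3rd percentile of all probes.

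Hamp, the iron hormone, had log2 ratios of -0.04, -0.88 and 0.02 in spretus 1, 2 and 3. In cas 1, 2 and 3 it had 0.12, 0.42 and 0.61, and cas 3 was the highest of all liver/kidney arrays. The lowest, median and highest values were 0.01, 0.10 and 0.25 in dom, 0.06, 0.26 and 0.41 in mus, and -0.03, 0.09 and 0.23 in ssp. Spretus 2 was low in both spots (-0.99 and -0.77), spretus 1 lay just below the lowest array of the other groups, and spretus 3 lay within the ssp range. The spretus difference was -0.51 ± 0.12 (95% interval -0.76 to -0.26; adjusted p = 0.0109, limma), a ratio to the pool of 0.702 times that of the other groups. Without spretus 2 it was -0.22 (adjusted p = 0.218). In order of the means, cas (0.38), mus (0.25), dom (0.11) and ssp (0.09) lay above spretus (-0.30), and no neighbours differed (ssp against spretus 0.39 ± 0.14, adjusted p = 0.10). Cas exceeded spretus by 0.68 ± 0.16 (adjusted p = 0.0177) and mus exceeded it by 0.55 ± 0.14 (adjusted p = 0.0185; 5.3% of probes called). Mice carry a near-identical copy, Hamp2, for which no probe was listed, so which of the copies this probe reads is uncertain.

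Hamp was also the only member called against the laboratory pool in liver/kidney. The mean of dom, mus, cas and ssp was above the pool by 0.21 ± 0.04 (adjusted p = 0.000921, limma), with 31.4% of probes called and 17.4% called higher. With the array set as a random block it was 0.16 (adjusted p = 0.999, limma), and 122 probes were called in place of 6480. Of 11 hepatocyte probes, 7 were also higher than the pool and 0 lower, with a median of 0.16, and their part in the offset was not tested. Of the arrays of these groups, only ssp 4 lay below the pool, at -0.03. Fgf21 (-0.03 ± 0.05), Thrsp (0.06 ± 0.04), Pck1 (0.01 ± 0.04) and Cux2 (-0.01 ± 0.03) were not called. The pool is a single control sample, so this comparison leaves out the spread between C57BL6 animals. By the labels, the pool was in the same channel on every array and the animal in the other. An offset from the pool therefore cannot be told apart from a difference of a probe between the channels, which was not tested. This limit holds for all comparisons with the pool below, in every tissue.

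Thrsp, the lipogenic protein, had log2 ratios of -0.17, -0.10 and -0.57 in spretus 1, 2 and 3 and of 0.10, 0.11 and 0.26 in cas 1, 2 and 3. Its lowest, median and highest values were -0.27, -0.06 and 0.28 in dom, -0.23, 0.03 and 0.15 in mus, and -0.03, 0.07 and 0.46 in ssp. Only spretus 3 lay below all arrays of the other groups. The spretus difference was -0.34 ± 0.11 (95% interval -0.56 to -0.12; adjusted p = 0.0481, limma). It was -0.20 (adjusted p = 0.340) without spretus 3, and leaving out 1 array ended the call in 16 of 24 runs. The means were ordered cas (0.16), ssp (0.11), mus (0.01), dom (-0.04) and spretus (-0.28), and no pair of groups differed, neighbours or not (ssp over spretus 0.40 ± 0.12, adjusted p = 0.0563; 5.1% of probes called).

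Cux2, the homeobox factor, had log2 ratios of -0.30, -0.77 and -0.05 in spretus 1, 2 and 3 with the first probe. In cas 1, 2 and 3 it had 0.04, -0.11 and 0.18. The lowest, median and highest values were -0.17, -0.05 and 0.08 in dom, -0.03, 0.03 and 0.13 in mus, and -0.15, -0.07 and 0.02 in ssp. Spretus 1 and 2 lay below every array of the other groups. The spretus difference was -0.37 ± 0.09 (95% interval -0.56 to -0.18; adjusted p = 0.0146, limma), and -0.17 (adjusted p = 0.268) without spretus 2. The spots of spretus 2 disagreed, at -1.25 and -0.29, the widest gap of this probe. Over all arrays the first spot gave -0.64 (adjusted p = 0.00780) and the second -0.10 (adjusted p = 0.548). The means were ordered mus (0.04), cas (0.04), dom (-0.04), ssp (-0.06) and spretus (-0.37). Neighbours did not differ (ssp over spretus 0.31 ± 0.10, adjusted p = 0.0819), and mus exceeded spretus by 0.42 ± 0.10 (adjusted p = 0.0190).

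The second Cux2 probe did not share the low spretus values, with 0.06, 0.14 and -0.15 in spretus 1, 2 and 3. It had lowest, median and highest values of -1.16, -0.17 and 0.11 in dom, -0.25, -0.14 and 0.11 in mus, and -0.16, -0.02 and 0.15 in ssp. It lacked values on all 3 cas liver/kidney arrays and was therefore not tested there. The probes of Cux2 thus disagree on spretus, and the call for this gene rests on the first.

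The comparisons among the house mouse groups called few probes of the whole array: 0.591% for mus against dom, 1.11% for cas against the dom and mus average, and 0.0436% for ssp against dom, mus and cas together. For mus minus dom the differences ran from -0.21 ± 0.12 in Fgf21 (adjusted p = 0.861) to 0.14 ± 0.11 in Hamp (adjusted p = 0.987). For cas they ran from -0.09 ± 0.10 in Pck1 to 0.20 ± 0.13 in Hamp (adjusted p = 0.493). For ssp they ran from -0.16 ± 0.10 in Hamp (adjusted p = 0.569) to 0.07 ± 0.08 in Thrsp. None of the 5 genes passed limma's test in these comparisons, nor at an unadjusted p under 0.05.

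**Figure D2:**
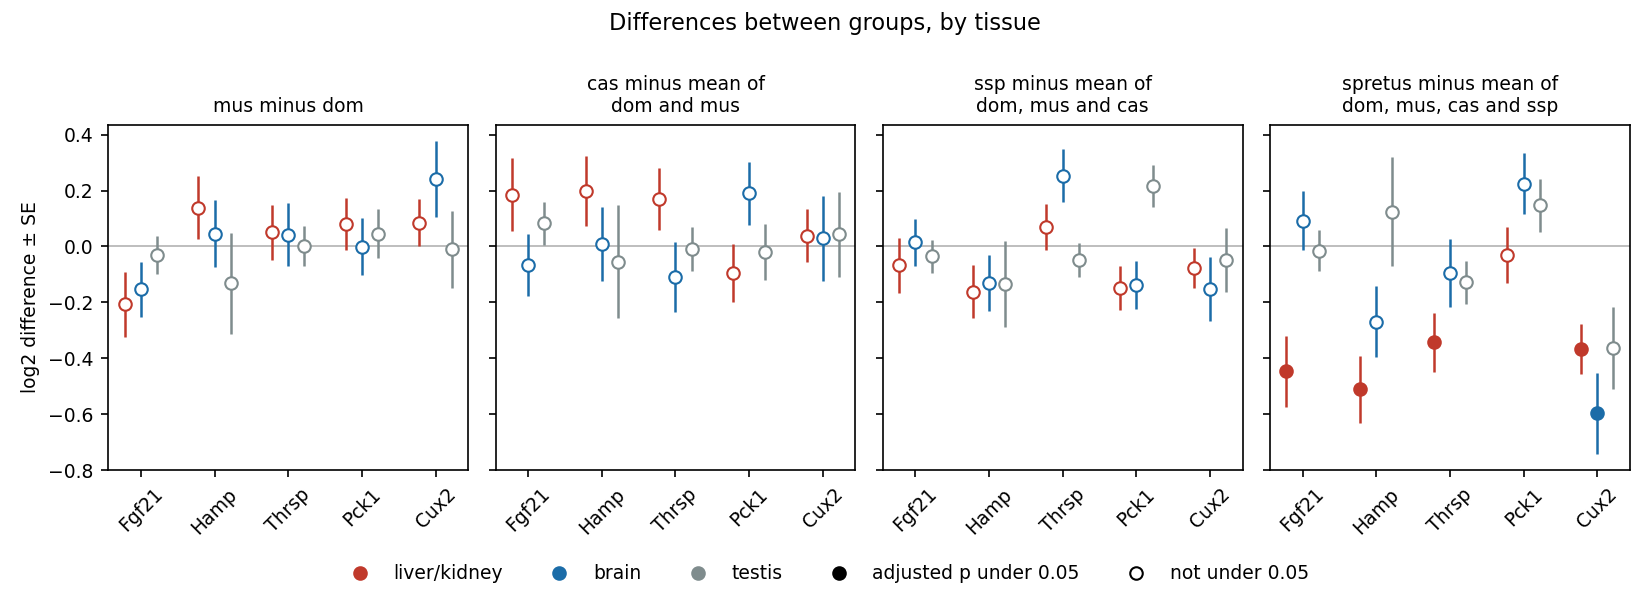
Log2 difference ± SE (y axis) of each gene (x axis) in 4 comparisons between groups, with liver/kidney in red, brain in blue and testis in grey. Filled points have an adjusted p under 0.05 (limma): Hamp, Cux2, Fgf21 and Thrsp in liver/kidney and Cux2 in brain, all lower in spretus.

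Hepatocyte markers were mostly lower in spretus, while kidney tubule markers went both ways. The mean of the kidney tubule markers minus that of the hepatocyte markers was -0.35 in dom (range -0.54 to -0.24), -0.26 in mus, -0.16 in ssp, -0.13 in cas and 0.11 in spretus (0.0022 to 0.19). Of 11 hepatocyte probes, 2 were called lower in spretus (4.46% of all probes), albumin (Alb, -0.63 ± 0.16, adjusted p = 0.0182, limma) and transthyretin (Ttr, -1.22 ± 0.24, adjusted p = 0.00294). The median of the list was -0.16, against -0.0024 for all probes. The hepatocyte mean was -0.08, -0.34 and 0.07 in spretus 1, 2 and 3, so it was lowest in the animal with the lowest Hamp and Cux2. The kidney mean of that animal was also the lowest of the 3 spretus animals, at -0.19, against 0.10 and 0.08 in spretus 1 and 3. Of 14 kidney probes, Umod, the uromodulin of the thick ascending limb, was higher (0.72 ± 0.12, adjusted p = 0.000957; 3.03% of all probes called higher). The glucose transporter Slc5a2 was lower (-0.40 ± 0.11, adjusted p = 0.0336). The kidney list did not shift as a whole, with a median of -0.01 and 7 of 14 differences positive. In such samples fewer cells of a type and less RNA per cell cannot be told apart.

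The other marker lists were shorter, and their calls are read against 3.03% of all probes called higher and 4.46% lower. Of 4 red blood cell probes, Hbb-b2 was higher in spretus (0.74 ± 0.22, adjusted p = 0.0427, limma), and the mean of that list was 0.23, 0.63 and 0.12 in spretus 1, 2 and 3. Of 7 leukocyte probes, 1 of 2 for the antigen-presenting gene H2-Aa was lower (-0.60 ± 0.12, adjusted p = 0.00376, against -0.30 ± 0.12 for the other), with list means of 0.09, -0.15 and 0.10. Podocyte and adipocyte lists had 0 calls (0 of 5 and 1 of 4 probes at an unadjusted p under 0.05, against 21.6% of all probes). As ratios to the pool, these values do not show whether any marker was at 0. With the kidney minus hepatocyte mean as a covariate, 49 probes were called in place of 1547, and the spretus differences were -0.20 for Fgf21, -0.30 for Hamp, -0.46 for Thrsp, -0.15 for Cux2 and -0.44 for Pck1, none of them called. The lowest spretus value of this covariate (0.0022) lay above the highest of the other groups (-0.0057, in ssp). The fit therefore cannot separate the organ mixture from the spretus difference, and a lost call does not show which of them counts. The part of the organ mixture in the results was not tested.

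Within array set 2, the 2 spretus arrays could be compared with the 3 cas arrays. There the differences were -0.64 for Fgf21, -0.53 for Thrsp, -0.39 for Hamp, -0.21 for Cux2 and -0.09 for Pck1. Limma called 0 probes of the whole array in this comparison, with 1593 at an unadjusted p under 0.05. The plot of the spretus difference by setting gives these values beside those without each spretus animal.

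**Figure D3:**
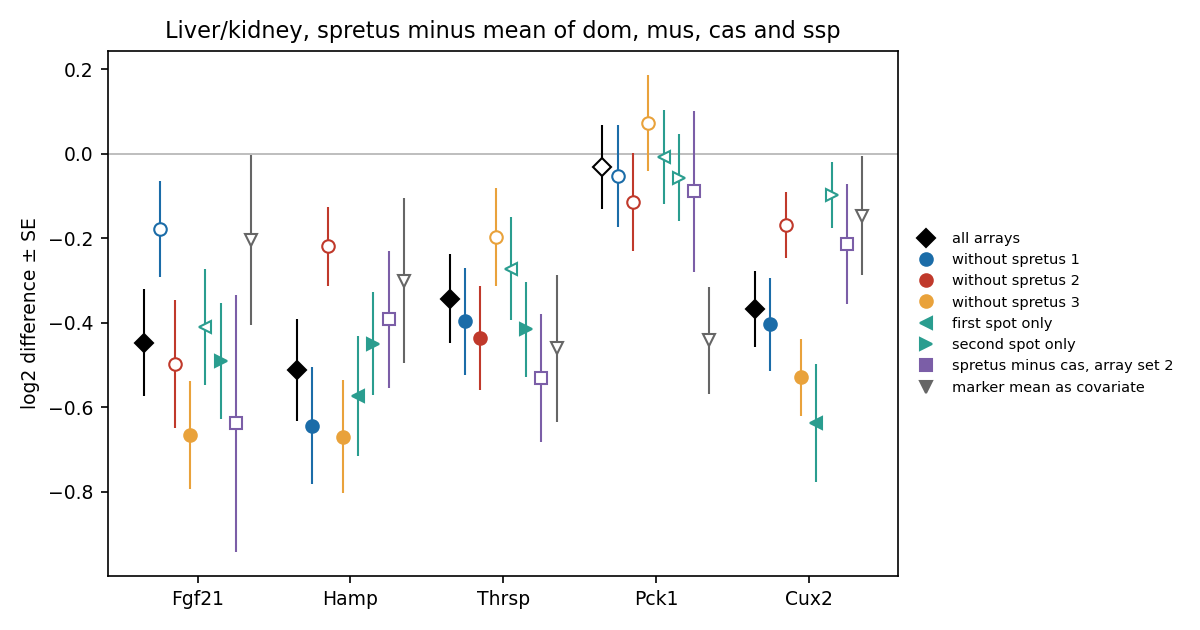
Log2 difference ± SE (y axis) of spretus minus the mean of dom, mus, cas and ssp in liver/kidney for 5 genes (x axis), with all arrays, without each spretus animal, from 1 spot of each pair, with the marker mean as a covariate, and within array set 2, where spretus is set against cas. Filled symbols have an adjusted p under 0.05 (limma). Fgf21 moves most without spretus 1, Hamp and Cux2 without spretus 2, and Thrsp without spretus 3.

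Lists of genes that act with these regulators were read in spretus against the 7.49% of all probes called there. Of 16 targets of PPAR-alpha and other fasting genes, of 9 genes of gluconeogenesis and amino acid use, and of 21 probes for lipogenic genes, limma called 0, with 4, 3 and 4 of them at an unadjusted p under 0.05 (21.6% of all probes). The medians were -0.08, -0.06 and -0.04, against -0.0024 over all probes. Of 10 probes of the insulin and growth factor axis, the growth hormone receptor Ghr was lower (-1.29 ± 0.25, adjusted p = 0.00259). Of 12 stress genes downstream of ATF4, the serine synthesis enzyme Phgdh was higher (0.35 ± 0.08, adjusted p = 0.00598) and the factor Atf3 lower (-0.34 ± 0.08, adjusted p = 0.0123).

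In iron handling, 2 of 20 probes were called lower in spretus, where 4.46% of all probes were, so nothing particular to the list is read from the count. They were transferrin (Trf, -0.48 ± 0.10, adjusted p = 0.00580, limma), the iron carrier of blood, and the ferroxidase ceruloplasmin (Cp, -0.36 ± 0.09, adjusted p = 0.0128). The median of the list was -0.07. The mean of the iron list was 0.02, -0.16 and 0.12 in spretus 1, 2 and 3, lowest in the animal with low Hamp. Over 24 arrays within groups, Hamp and the iron mean had r = 0.504 (permutation p = 0.310, adjusted 0.713). It was -0.108 without spretus 2 and 3 and -0.200 in dom, mus and ssp alone, so a link of Hamp with the iron list is not read from spretus 2. Hepcidin is also an acute-phase gene, and 3 of 13 acute-phase probes were called lower, against the same 4.46%: Itih4 (-0.52 ± 0.12), and the fibrinogen chains Fgg (-0.62 ± 0.18) and Fgb (-0.42 ± 0.10). The acute-phase mean was -0.06, -0.33 and -0.07 in spretus 1, 2 and 3, and again lowest in spretus 2. Many of these genes are made by hepatocytes, whose markers were lowest in the same animal, and their shares in the result were not tested.

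Among glucocorticoid-responsive genes, 1 of 10 probes was called (7.49% of all probes), the kinase Sgk1 (-0.46 ± 0.08, adjusted p = 0.00123, limma). Cux2 is known as a female-biased liver gene. Of 13 probes of other female-biased liver genes, the cytochrome Cyp2b13 was higher in spretus males (1.06 ± 0.09, adjusted p = 1.04e-07) by 1 of its probes and at 0.05 ± 0.09 by the other, while the list's median was -0.05. Of 8 probes of male-biased genes, Selenbp2 (0.20 ± 0.06) and the repressor Bcl6 (0.27 ± 0.07) were higher and Nat8 lower (-0.30 ± 0.09).

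Among the house mouse groups, the lists are read against 0.591% of all probes called for mus against dom and 1.11% for cas. Bmp6, the ligand through which liver cells raise hepcidin on iron loading, was higher in mus than in dom (0.77 ± 0.13, adjusted p = 0.00247, limma), the only call of the 10 pathway lists in that comparison, and Hamp itself was not called there (0.14 ± 0.11). In cas, the fatty acid hydroxylase Cyp4a14 of the fasting list (0.38 ± 0.08, adjusted p = 0.0256) and Itih4 of the acute-phase list (0.77 ± 0.12, adjusted p = 0.00379) were higher. Of the marker lists, Umod, Slc22a8 and Hba-a1 were higher in cas (0.56 ± 0.13, 0.47 ± 0.12 and 1.01 ± 0.19). In ssp, limma called 0 members of the lists, against 2, 0, 1, 0 and 1 at an unadjusted p under 0.05 in the fasting, gluconeogenic, insulin, lipogenic and iron lists, and 3 in the acute-phase list (10.6% of all probes).

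Against the pool, the lists are read against 31.4% of all probes called and 17.4% called higher. In either direction the iron and lipogenic lists lay under the 31.4%, and the fasting list lay above it. Called higher, each of these lists lay above the 17.4% by few probes, so nothing particular to them is read from the counts. Of 20 iron probes, 5 were higher and 1 lower in the mean of dom, mus, cas and ssp, with transferrin (0.37 ± 0.04, adjusted p = 9.9e-08, limma), the haem carrier Hpx (0.34 ± 0.08, adjusted p = 0.00224) and the iron importer Slc11a2 (0.23 ± 0.05, adjusted p = 0.000453) among the higher. Of 16 fasting probes, 4 were higher, among them Cyp4a10 (0.31 ± 0.07) and the lipase inhibitor Angptl4 (0.15 ± 0.03), and 3 lower, among them the factor Creb3l3 (-0.48 ± 0.06, adjusted p = 9.38e-07), which drives Fgf21 with PPAR-alpha. Of 21 lipogenic probes, 5 were higher and 0 lower, with pyruvate kinase Pklr (0.38 ± 0.05), the acyltransferase Gpam (0.18 ± 0.03) and the elongase Elovl5 (0.20 ± 0.05) among them.

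Covariation was read over the 24 liver/kidney arrays after subtracting the mean of each group, for the 10 pairs of the 5 genes, with Cux2 by its first probe. Duplicate spots of that probe agreed within groups with r of only 0.318, and the relations of Cux2 were not examined with its second probe. All values of an array share the animal, the pool and the centring. Pck1 and Cux2 moved oppositely (r = -0.659, permutation p = 0.00222, adjusted over 10 pairs 0.0222; Spearman rho = -0.636, permutation p = 0.00949, adjusted 0.0474). Without cas 3 and spretus 3, the arrays farthest in Pck1, r was -0.504 (adjusted permutation p = 0.0599), short of the threshold. Leaving out 1 array gave r from -0.719 to -0.596, and the call ended without cas 3, dom 1 or dom 5 and held without spretus 3. In dom, mus and ssp alone r was -0.616 (adjusted permutation p = 0.126).

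Hamp and Pck1 also moved oppositely by rank (rho = -0.623, permutation p = 0.00842, adjusted 0.0474), while r missed the threshold (r = -0.603, permutation p = 0.0113, adjusted 0.0564). The p-values of r and of rho were adjusted apart, each over the 10 pairs, and not over both together. A pair that passes by 1 of them only is therefore weakly supported. Without spretus 2 and 3, the arrays farthest in Hamp, r was -0.664, and in dom, mus and ssp alone it was -0.552 (adjusted permutation p = 0.126). Hamp and Cux2 had the highest r of the 10 pairs, 0.732, but it did not pass (permutation p = 0.0634, adjusted 0.162; rho = 0.473). It was 0.287 without spretus 2 alone, 0.285 without spretus 2 and 3, and 0.214 in dom, mus and ssp, so it rests on spretus 2.

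Thrsp and Cux2 had r = -0.494 (permutation p = 0.0646, adjusted 0.162; rho = -0.430). The other 6 pairs lay between -0.310 for Fgf21 with Pck1 and 0.171 for Thrsp with Pck1 (adjusted permutation p of 0.595 and 0.760). For Fgf21, the fasting hormone, none of its 4 pairs passed, the one with Pck1, the other fasting gene, included. The scatter of 3 pairs shows the single arrays.

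**Figure D4:**
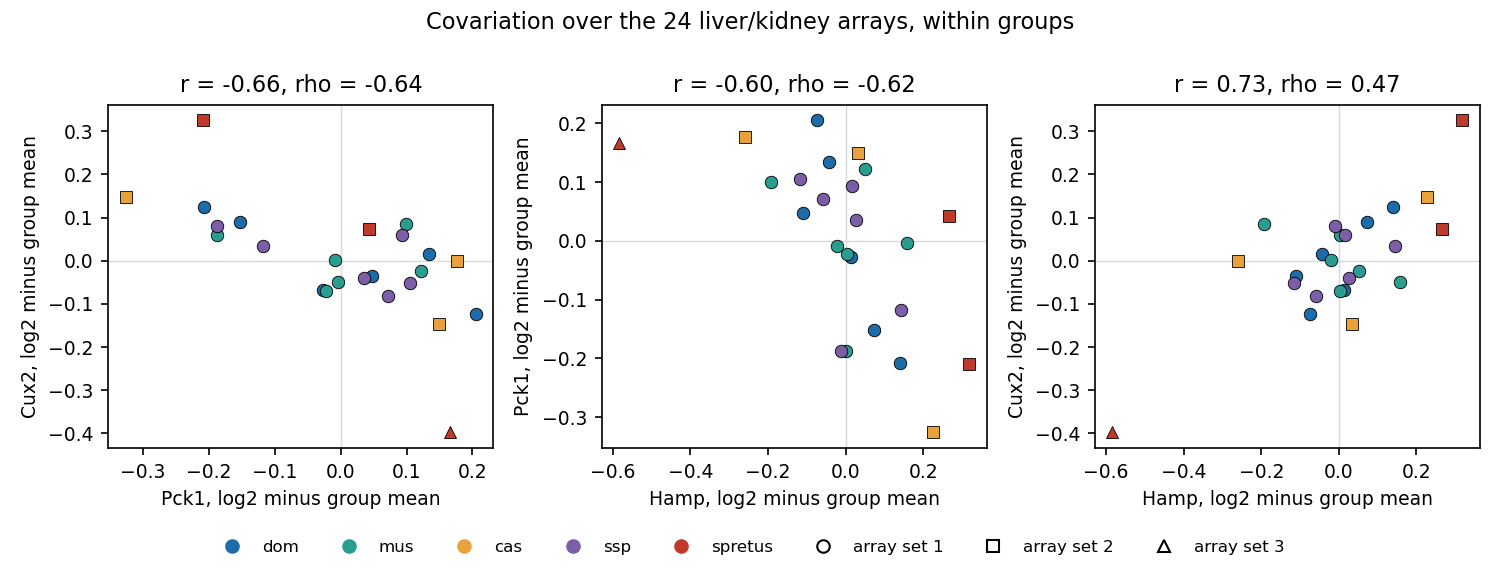
Log2 ratio minus the group mean for 3 pairs of genes over 24 liver/kidney arrays, coloured by group, with circles, squares and triangles for array sets 1, 2 and 3. Pck1 and Cux2 (r = -0.66) and Hamp and Pck1 (r = -0.60) slope downwards over the house mouse arrays as well, whereas the slope of Hamp on Cux2 (r = 0.73) follows spretus 2, the triangle.

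The same deviations were set against the means of the 10 pathway and 6 marker lists, 80 relations in all. None passed after adjustment. By r the smallest p-values were those of Cux2 with the hepatocyte mean (r = 0.748, permutation p = 0.00586, adjusted 0.249; rho = 0.631) and Pck1 with the hepatocyte mean (r = -0.665, permutation p = 0.00623, adjusted 0.249; rho = -0.682). By rank it was that of Thrsp with the podocyte mean (rho = -0.661, permutation p = 0.00105, adjusted 0.0840; r = -0.494). In dom, mus and ssp alone r with the hepatocyte mean was 0.337 for Cux2 and -0.406 for Pck1. Without spretus 2 and 3 these were 0.553 and -0.607.

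Among 19621 probes with a value on every liver/kidney array, the gene most like Hamp was Cyp27a1, the mitochondrial sterol 27-hydroxylase of bile acid synthesis (r = 0.949 over 24 arrays within groups). It had log2 ratios of -0.30, -1.44 and -0.12 in spretus 1, 2 and 3 and of 0.06, 0.29 and 0.69 in cas 1, 2 and 3. The lowest spretus animal and the highest cas animal were thus those of Hamp. Without spretus 2 r was 0.873, and in dom, mus and ssp alone 0.840. The next, Zfp617, Vnn3, Slc7a3 and Serpinb9e, had r of 0.869 to 0.882 but 0.541 to 0.677 without spretus 2. These likenesses were picked as the highest of all probes, so they are a description with no test.

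The genes most like Cux2 also leaned on spretus 2: Fgf17, a fibroblast growth factor, had r = 0.917, and 0.778 without that array, with -0.80 there. Behind it came H1f6, Cttn, Ascc1 and Adgrg1, with r from 0.883 down to 0.838. Fgf21 was most like the engulfment adaptor Gulp1 (r = 0.793), then Mylpf, Cotl1, Rp9 and Cavin1 (0.759 to 0.741, with 0.321 for another Cavin1 probe), and in dom, mus and ssp alone these ranged from 0.244 for Mylpf to 0.854 for Cotl1. Thrsp was most like Neo1 (r = 0.768, but -0.0169 with a second Neo1 probe), then Top1, Olfr19, the receptor Kit and the activin binder Fst (0.756 to 0.727). Pck1 was most like Ppp1r15a, a stress-induced phosphatase subunit (r = 0.779, and 0.538 in dom, mus and ssp alone). Ppp1r15a was low in cas 3 (-0.75) and spretus 3 (-0.50), the arrays of their groups with the lowest Pck1. Behind it came Gmfb, Bcr, the brush-border peptidase Anpep and Phip (0.741 to 0.726, with 0.319 and 0.448 for other Phip probes).

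In brain, Cux2 was the member that differed in spretus, where limma called 3.95% of 20621 probes, 2.07% lower. The first probe had -0.45, -0.62 and -0.30 in spretus 1, 2 and 3, below every array of the other groups. Its lowest, median and highest values were -0.10, 0.08 and 0.16 in dom, 0.04, 0.18 and 1.06 in mus, and -0.04, 0.01 and 0.17 in ssp, and it had 0.63, 0.11 and -0.15 in cas 1, 2 and 3. The difference was -0.60 ± 0.15 (adjusted p = 0.0210, limma), and the call was lost without spretus 1 (-0.60, adjusted p = 0.0947) or spretus 2 (-0.51, adjusted p = 0.143). All 3 spretus brains were in array set 2, and the mus, ssp and cas brains of that set lay between 0.0057 and 0.63, all above them. In testis the same probe had -0.10, -0.57 and -0.58 in spretus, a difference of -0.36 ± 0.15 (adjusted p = 0.127; 9.42% of 20754 probes called), and the second probe 0.05 ± 0.08. The second probe had 0.03, -0.13 and -0.07 in the spretus brains, inside the range of the other groups.

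Against the pool, Hamp was lower in testis in the mean of dom, mus, cas and ssp (-0.32 ± 0.07, adjusted p = 0.00398, limma; 13.1% of probes called, 8.75% lower). The lowest, median and highest testis values were -0.34, -0.23 and 0.01 in dom, -0.65, -0.37 and -0.03 in mus, and -1.17, -0.22 and 0.11 in ssp, with -0.75, -0.06 and -0.15 in cas 1, 2 and 3. Hamp varied between testes of a group more than 95.4% of probes did. In brain, Pck1 (-0.13 ± 0.04, adjusted p = 0.0382) and Fgf21 (-0.13 ± 0.04, adjusted p = 0.0440) were lower than the pool (8.95% of probes called, 3.67% lower), and leaving out 1 array ended these calls in 9 and 16 of 24 runs. Without cas 2 they were -0.10 and -0.08. As ratios to the pool, these values do not show whether the members were above background in testis or brain. The same limit holds for the differences between tissues below.

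The effect in liver/kidney was set against the mean effect in brain and testis in a single limma model over 20589 probes. The spretus difference of Fgf21 was lower in liver/kidney by 0.49 ± 0.13 (-0.49, adjusted p = 0.0154; 4.42% of probes called), and without spretus 1 in liver/kidney it was -0.22 (adjusted p = 0.407). For Hamp the difference between tissues in spretus was -0.44 ± 0.19 (adjusted p = 0.208), for Thrsp -0.23 ± 0.13, for Pck1 -0.22 ± 0.13 and for Cux2 0.11 ± 0.16, none called. The offset of Hamp from the pool was higher in liver/kidney than in the other tissues by 0.35 ± 0.07 (adjusted p = 0.000101; 18.3% of probes called), positive in liver/kidney, 0.04 ± 0.05 in brain and negative in testis.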

How the data were processed

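RNA of brain, liver/kidney and testis of male mice was measured on 72 arrays with 2 channels, the pool in channel 1 and the animal in channel 2, per the labels. The values deposited by the authors are log ratios, taken here as log2. The steps before deposit (scanner, background, normalisation) are not given here by any label. The deposited medians of the liver/kidney arrays lay between -0.04 and 0.03. For 1 brain array, number 8 of mus, title and channel label disagree (mus or domesticus), and the title was followed.

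Duplicate spots were averaged (22320 pairs), 1488 single spots were dropped, and 232 pairs of Gapdh were averaged into 1 probe. This left 22089 probes, of which 15801 had 1 symbol, 294 several and 5994 none, by the probe annotation. Each array was centred on its median. Probes with 2 or more values in each group were tested, using limma 3.58.1 in R 4.3.3 (data.table package, version 1.17.8) with group means as coefficients, two-sided, with Benjamini-Hochberg adjustment over all probes tested. Arrays of a group hold different males, per the design text, and their number limits the precision. For the difference between tissues all arrays entered 1 model, and arrays of the same animal shared a random effect (estimated correlation 0.0200). Sets of arrays were found by clustering which spots lacked a value, with a median correlation of that pattern of 0.606 within sets and 0.0180 between them. The labels name no batch. Correlations used 100000 permutations within groups. Scripts used Python 3.11.15, numpy 2.4.6, pandas 2.3.3, scipy 1.17.1 and matplotlib 3.10.9. The limma fit was tested on simulated data.

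The members, gene lists and tests were chosen with earlier results of these data known. The genes named are the members, up to 3 called genes per list and comparison with the smallest p, and the 5 most alike genes of each member. A gene with several probes is given by its probe with the smallest p. Alternatives were no centring, quantile normalisation, array weights, only the groups compared, other filters on missing values, 1 spot of each pair, the animal number as a block, the array set as a random block or a restriction, the marker mean as a covariate, and leaving out each array. Those for brain, testis, the difference between tissues and the most alike genes were added after seeing the data. Animal numbers did not pair the samples: same-numbered animals of different groups correlated with a median r of -0.00077 over 27 pairs.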

Additional observations from a re-analysis of the deposited data

Results flagged for a closer look

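The spretus effect on Fgf21 differed between tissues by the test of the difference itself: -0.49 ± 0.13 (log2, liver/kidney minus the mean of brain and testis, adjusted p = 0.0154, limma), with spretus 1 low in liver/kidney (-1.01) and not in its brain (-0.09) or testis (0.06). Without spretus 1 in liver/kidney it was -0.22 (adjusted p = 0.407). The offset of Hamp from the pool differed likewise, by 0.35 ± 0.07 (adjusted p = 0.000101).

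Dixon's test was run on 54 combinations of probe, tissue and group, each of 6 dom, mus or ssp arrays, so the same arrays recur for each probe. In 6 of them an array stood far from the rest of its group, where about 1 in 20 is flagged by chance. In liver/kidney this was Thrsp in ssp 5 (0.46, the others -0.03 to 0.14). In brain these were the first Cux2 probe in mus 2 (1.06, the others 0.04 to 0.19) and in ssp 4 (0.17, the others -0.04 to 0.04), and the second Cux2 probe in mus 5 (0.33, the others -0.09 to 0.04). Also in brain were Hamp in ssp 5 (-0.53, the others -0.08 to 0.09) and Pck1 in dom 1 (-0.45, the others -0.17 to -0.04). The cas and spretus arrays, 3 in each tissue, were too few for this test.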

How the results depend on the processing

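Each array was left out in turn and each processing choice changed alone. Of 1080 differences and correlations with an array left out, 1008 kept their direction and their side of the threshold. Many of these were never called, so this share does not measure how stable the calls were. In liver/kidney, runs that kept a call ranged from 8 of 24 for Thrsp in spretus to 24 of 24 for Hamp against the pool. Those for brain, testis and the difference between tissues were chosen after seeing the data. The cause of a change was not tested. A lost call with a like or larger difference (Fgf21 without spretus 2, brain Cux2 without spretus 1) does not show that it rests on that animal. All p-values measure only the spread between these arrays.

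Of the probe counts in liver/kidney, that of mus against dom (122) was 207 after quantile normalisation, 319 with array weights and 250 from the compared groups alone. The count for cas (230) was 417 from the compared groups alone, 95 with the marker mean as a covariate and 0 with the array set as a random block (376 at an unadjusted p under 0.05, limma). The count for ssp (9) was 22 without centring, 28 after quantile normalisation, 42 with array weights, 44 from the compared groups alone, 22 over probes complete on all arrays, 1 and 2 from the first and second spots, 1 with the covariate, 0 with the set as a block (1486 unadjusted, limma) and 343 within array set 1. The count for spretus (1547) was 899 after quantile normalisation, 719 with array weights, 49 with the covariate, 113 with the set as a block and 0 within set 2 (1593 unadjusted, limma). The count against the pool (6480) was 122 with the set as a block.

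With the animal number as a replicate block, although the numbers did not pair the animals, the counts were 10 for mus against dom, 13 for cas, 0 for ssp (1570 unadjusted, limma) and 633 for spretus. With this block the spretus differences that lost their call were -0.44 for Fgf21, -0.33 for Thrsp and -0.37 for Cux2, while Hamp kept its call at -0.56 (adjusted p = 0.0395, limma). Pck1 in mus against dom became -0.0098 with the block.

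The spretus difference of Fgf21 lost its call after quantile normalisation (-0.32), from the first spots (-0.41), with the set as a block (-0.44), with the covariate (-0.20) and within set 2 (-0.64). Thrsp lost it after quantile normalisation (-0.35), with array weights (-0.32), from the first spots (-0.27), with the set as a block (-0.34), with the covariate (-0.46) and within set 2 (-0.53). Cux2 lost it after quantile normalisation (-0.24), with array weights (-0.27), from the second spots (-0.10), with the set as a block (-0.38), with the covariate (-0.15) and within set 2 (-0.21). Hamp lost it with array weights (-0.31), with the set as a block (-0.53), with the covariate (-0.30) and within set 2 (-0.39). The offset of Hamp from the pool lost its call with the set as a block (0.16).

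Signs of differences turned only where they were not called. Pck1 in mus against dom was -0.026 with the covariate, and Pck1 in cas 0.0092 with array weights. Cux2 in cas was -0.0065 with array weights, -0.15 from the second spots and -0.085 with the set as a block. Against the pool, Fgf21 was 0.025 from the second spots and Cux2 0.053 from the first.

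Of the correlations, Fgf21 with Hamp was -0.134 after quantile normalisation, -0.0374 in dom, mus and ssp, and -0.0503 given the marker mean. Fgf21 with Thrsp was 0.239 without subtracting group means, 0.0670 in dom, mus and ssp, and 0.164 without the 2 farthest arrays. Fgf21 with Pck1 was 0.118 in dom, mus and ssp. Fgf21 with Cux2 was -0.360 in dom, mus and ssp, -0.0385 given the marker mean and -0.00551 without the 2 farthest arrays. Hamp with Thrsp was 0.306, 0.199 and 0.257 without subtracting group means, in dom, mus and ssp, and without the 2 farthest arrays. Thrsp with Cux2 was 0.0882 without subtracting group means, and passed at -0.656 after quantile normalisation. Hamp with Pck1 passed at -0.544 after quantile normalisation and at -0.590 given the marker mean. Hamp with Cux2 passed at 0.851 without subtracting group means. Pck1 with Cux2 no longer passed without subtracting group means (-0.277), in dom, mus and ssp (-0.616) and without the 2 farthest arrays (-0.504).

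Leaving out 1 array gave counts of 66 to 159 for mus against dom, 108 to 441 for cas, 1 to 47 for ssp (moved in 17 of 24 runs), 955 (without spretus 2) to 2125 for spretus and 5100 to 7181 against the pool. The count of mus against dom moved furthest without mus 4 or mus 5, and that of cas without cas 1, cas 3, dom 13 or spretus 2. The spretus differences ranged from -0.67 to -0.18 for Fgf21, -0.44 to -0.20 for Thrsp, -0.53 to -0.17 for Cux2, -0.67 to -0.22 for Hamp and -0.11 to 0.073 for Pck1 (turning without spretus 3). In cas, Pck1 ranged from -0.18 to 0.069 and Cux2 from -0.035 to 0.11, both turning without cas 3. Against the pool, Pck1 ranged from -0.0092 to 0.054, Cux2 from -0.026 to 0.011 and Hamp from 0.18 to 0.24, called each time. In brain, Cux2 in spretus ranged from -0.68 to -0.51, and against the pool Pck1 ranged from -0.16 to -0.10 and Fgf21 from -0.15 to -0.075. The testis offset of Hamp ranged from -0.35 to -0.26. The difference between tissues ranged from -0.70 to -0.22 for Fgf21 in spretus and from 0.32 to 0.38 for the offset of Hamp.

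Over the same runs r ranged from -0.283 to 0.478 for Fgf21 with Hamp, -0.241 to 0.180 for Fgf21 with Thrsp, -0.411 to 0.332 for Fgf21 with Cux2, -0.232 to 0.207 for Hamp with Thrsp and -0.00119 to 0.329 for Thrsp with Pck1. It ranged from -0.680 to -0.530 for Hamp with Pck1, which passed in 7 of 24 runs, and from -0.719 to -0.596 for Pck1 with Cux2, which did not pass without cas 3, dom 1 or dom 5.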
